A study of Mus musculus with 16 samples.

Results

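The comparison described here was between cancer cells sorted from mouse pancreatic tumours for a green fluorescent reporter alone (GFP) and cells sorted as negative for both reporters of the study (double negative, DN). It used 8 of the 16 libraries of the series, the 4 titled GFP and the 4 titled Dneg, taken by title and paired by the library number 1 to 4 in those titles. The other 8 libraries were 4 of cells positive for mScarlet and 4 of cells positive for both reporters (double positive, DP). Every group came from the same cells, KPC 7TCF-eGFP/Porcn-DMA PDAC, where PDAC is pancreatic ductal adenocarcinoma. The tumours were orthotopic, growing in the pancreas of mice, and the DN cells carried the same reporter and the same construct called Porcn-DMA as the GFP cells. The sources used here do not give the make-up of that construct, the number of clones in the line, or the strain, sex and age of the hosts, and they name no treatment. The series description gives 4 mice per group. It does not say that one number means one mouse, so the pairing rests on the title numbers and on the check given with the processing. The comparison asked which transcripts accompanied an active TCF reporter in cells outside the mScarlet gate.

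WNT proteins are lipidated by the acyltransferase Porcn and carried to the cell surface by Wls. When one binds a Frizzled receptor and an Lrp co-receptor, beta-catenin escapes degradation and joins TCF/LEF factors at their target genes. In 7TCF-eGFP, TCF sites drive green fluorescent protein. Among the targets, Axin2, Nkd1, Notum, Rnf43 and Znrf3 feed back to dampen the pathway. Lgr5, another target, is a receptor for the R-spondins, and together they raise the number of Frizzled receptors at the surface. In the pancreas and its tumours the pathway is known for roles in progenitor growth and in tumour maintenance, and some PDAC cells depend on WNT ligands when Rnf43 is lost.

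Total counts ran from 82118426 to 100358451 in GFP and from 88707082 to 104273669 in DN (exact permutation p = 0.257, two-sided), and 16039 to 17805 genes had at least 1 count (exact permutation p = 0.543). Both permutations ignored the pairing, and the GFP library had the lower total in each pair. Levels are given as CPM, counts scaled to one common library total after TMM adjustment, and a floor of 3 counts was worth 0.0288 to 0.0365 CPM. Floors cover counting error only, since the cDNA was amplified and the reads carry no molecular identifiers. Keratins of ductal epithelium were abundant in both groups. Krt19 was at 8337 ± 1773 CPM in GFP against 8321 ± 1055 CPM in DN (SD, n = 4), Krt8 at 7754 ± 2007 CPM in GFP against 8717 ± 597 CPM in DN (SD, n = 4) and Cdh1 at 686 ± 336 CPM in GFP against 721 ± 175 CPM in DN (SD, n = 4). The epithelial surface marker Epcam was at 0.396, 0.0239, 0.0737 and 29.0 CPM in GFP libraries 1 to 4 and at 0.426, 0, 0.321 and 0.171 CPM in DN libraries 1 to 4, so that GFP library 4 alone exceeded 1 CPM. The epithelial list of 22 genes had 21 tested members with a median log2 fold change of 0.25, and -0.04 without GFP library 4. The medians of the log2 ratio in pairs 1 to 4 were -0.23, 0.31, 0.21 and 0.53. Its summed level was 16853, 31927, 33746 and 27773 CPM in GFP libraries 1 to 4. In DN libraries 1 to 4 it was 27524.5, 26916, 28431 and 29684 CPM, so that GFP library 1 was the lowest. The table of genes holds no reporter sequence, so the gates themselves could not be checked.

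Of 15963 genes tested, 11 were called at an adjusted p under 0.05 with the library number as a block. That is 0.0689% of the genes, with 10 higher in GFP (0.0626%) and 1 lower (0.00626%). Without the block none was called (0%), although 1551 genes had an unadjusted p under 0.05 (9.72%) and the lowest adjusted p was 0.138. With the block, 2168 genes had an unadjusted p under 0.05 (13.6%), 1240 of them higher in GFP (7.77%) and 928 lower (5.81%). Over all genes tested, 48.4% had a positive and 51.6% a negative log2 fold change, and the median was -0.02. The 4 GFP libraries lay above the 4 DN libraries for 305 genes (1.91%) and below them for 364 (2.28%). GFP exceeded DN in 4 of 4 pairs for 1701 genes (10.7%) and was under it in 4 of 4 for 1847 (11.6%). The lists below are read against these shares. In a fit of the 8 libraries alone with the block, 39 genes were called, 7 of them among the 11. The count was 53 without GFP library 4, 16 without GFP library 2, 4 without DN library 1, 2 without GFP library 1 and 1 without DN library 2, 3 or 4, and DESeq2 with the block called 768 genes, the 11 among them.

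The 10 genes that were higher in GFP coded for a lipid transfer protein, a growth factor, a heat shock protein, 2 secreted inflammatory signals, 2 solute carriers and 3 proteins of other kinds, and the 1 that was lower for an actin-binding peptide. Pltp, which moves phospholipids between lipoproteins, had the lowest p. The gene (Entrez 18830) lies on chromosome 2 from 164839518 to 164857708 in GRCm38.p6. Its level was 388, 46.9, 79.4 and 171 CPM in GFP libraries 1 to 4 and 29.0, 5.56, 6.02 and 15.8 CPM in DN libraries 1 to 4 (log2 fold change 3.50, SE 0.33, adjusted p = 0.00139, and 0.278 without the block). The groups did not overlap, and Pltp was called under 20 of 23 alternatives. Pltp overlaps Ctsa on the opposite strand, and the sources used here do not say whether counting used strand.

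Igf1, the insulin-like growth factor, stood at 24.8, 7.25, 4.42 and 53.9 CPM in GFP and at 2.29, 0.389, 0.586 and 5.92 CPM in DN (log2 fold change 3.34, SE 0.47, adjusted p = 0.0262, 0.415 without the block). Both groups had their highest value in library 4, and GFP library 3 lay below DN library 4, so the groups overlapped while each of the 4 pairs went the same way. Ccl7, a chemokine that draws monocytes, was at 193, 21.2, 35.1 and 246 CPM in GFP against 17.1, 2.68, 3.87 and 12.5 CPM in DN (log2 fold change 3.54, SE 0.51, adjusted p = 0.0305, 0.357 without the block). Its GFP libraries 1 and 4 were the high ones, and no GFP library fell into the DN range.

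Il6, the cytokine that signals through gp130 and STAT3, (Entrez 16193) lies on chromosome 5 from 30013114 to 30019975 in GRCm38.p6. It reached 31.8, 3.9, 2.43 and 28.5 CPM in GFP and 3.11, 1.18, 0.885 and 3.51 CPM in DN (log2 fold change 2.48, SE 0.39, adjusted p = 0.0364, 0.37 without the block). GFP libraries 1 and 4 were far above the rest, whereas GFP library 3 lay below DN libraries 1 and 4. Leaving out 1 library gave log2 fold changes of 2.12 to 2.74 and adjusted p of 0.0403 to 0.179, with the call lost without GFP library 1 or 4 or any 1 DN library. Without GFP libraries 1 and 4 together the log2 fold change was 1.6 (adjusted p = 0.458). In the fit of the GFP and DN libraries alone with the block it was 2.4, and the call was lost (adjusted p = 0.127). Hspa1a, the inducible Hsp70 chaperone, (Entrez 193740) lies on chromosome 17 from 34969359 to 34972156 in GRCm38.p6. It stood at 195, 57.9, 105.3 and 319 CPM in GFP and 29.2, 22.7, 38.6 and 26.2 CPM in DN (log2 fold change 2.37, SE 0.34, adjusted p = 0.0262, 0.138 without the block). Every GFP library exceeded every DN library, and the DN mean was 29.2 ± 6.83 CPM (SD, n = 4). With 1 library left out its log2 fold change was 1.92 to 2.63 and its adjusted p 0.018 to 0.161, and the call was lost without GFP library 1 or any 1 DN library. Both GFP libraries 1 and 4 left out gave 1.5 (adjusted p = 0.104). The fit of the GFP and DN libraries alone with the block gave 2.28, and the call was lost there too (adjusted p = 0.137).

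Slco2b1, an organic anion transporter, was at 67.7, 9.59, 4.01 and 9.84 CPM in GFP and at 0.946, 0.054, 0 and 0 CPM in DN (log2 fold change 7.31, SE 1.10, adjusted p = 0.0305, 0.357 without the block). Slc22a17, a receptor for lipocalin 2, was at 4.08, 1.94, 0.712 and 19.8 CPM against 0, 0, 0 and 0.893 CPM (log2 fold change 7.30, SE 1.16, adjusted p = 0.0374, 0.482 without the block). Its GFP library 3 lay below DN library 4. Slco2b1 overlaps antisense gene models. Cbr2, a carbonyl reductase, was at 184, 27.0, 47.3 and 27.7 CPM against 10.6, 3.31, 5.22 and 2.47 CPM (log2 fold change 3.54, SE 0.54, adjusted p = 0.0359, 0.214 without the block), with no overlap.

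Rab3il1, an exchange factor for Rab GTPases, was at 142, 31.3, 33.3 and 49.8 CPM in GFP and 26.5, 5.47, 7.06 and 7.14 CPM in DN (log2 fold change 2.48, SE 0.32, adjusted p = 0.0218, 0.357 without the block). The lipid raft protein Rftn1 was at 41.7, 9.01, 13.3 and 29.2 CPM against 11.2, 1.86, 2.45 and 2.59 CPM (log2 fold change 2.46, SE 0.33, adjusted p = 0.0262, 0.372 without the block). For both, DN library 1 stood above the other DN libraries, and for Rftn1 it also lay above GFP library 2. Tmsb10, thymosin beta 10, which holds actin monomers, was the gene that fell. It stood at 881, 729, 791 and 1515 CPM in GFP and 1599, 1258, 1248 and 2681 CPM in DN (log2 fold change -0.78, SE 0.11, adjusted p = 0.0262, 0.487 without the block). Library 4 was the highest in both groups, so GFP library 4 overlapped the DN range, but GFP was the lower in 4 of 4 pairs. Apart from Pltp, the 11 genes were each called in 7 to 13 of 22 or 23 alternatives, and none changed direction in any of them.

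**Figure D1:**
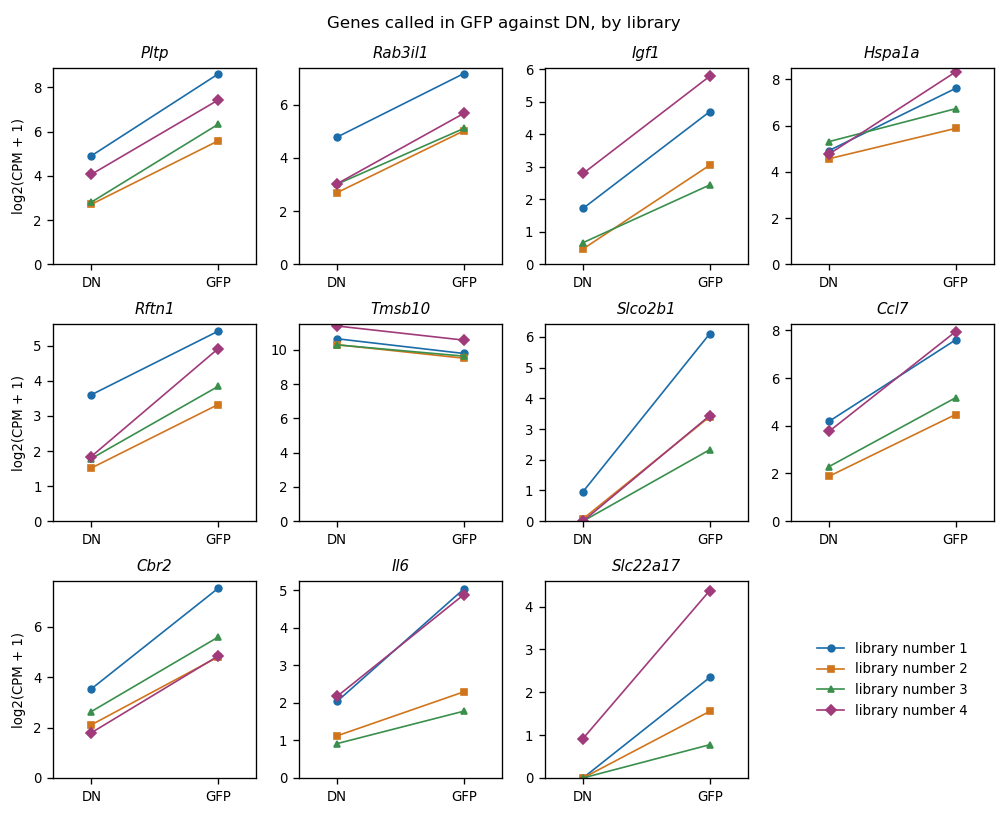
Each panel shows 1 of the 11 called genes as log2(CPM + 1) on the y axis, in DN (left) and GFP (right), with 1 line per library number. All lines rise from DN to GFP except in the Tmsb10 panel, where all 4 fall.

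Markers of macrophages, cells that a sort for cancer cells could hold, had positive fold changes beside these genes. All 20 macrophage markers were positive, with a median log2 fold change of 2.46, and 17 had an unadjusted p under 0.05, but none was called. Their summed level was 46973, 11689, 11817 and 6259 CPM in GFP libraries 1 to 4 and 8796, 5332, 6099 and 4789 in DN libraries 1 to 4. GFP library 1 was the highest, and library 4 differed least from its DN partner. Cd68, a lysosomal membrane protein of phagocytes, was at 576, 83.1, 94.9 and 40.5 CPM in GFP against 63.7, 21.3, 31.5 and 18.5 CPM in DN (log2 fold change 2.18, SE 0.58, adjusted p = 0.173). Trem2, a receptor of lipid-laden macrophages, was at 121, 20.2, 16.9 and 11.5 CPM against 15.2, 0.637, 2.33 and 1.96 CPM (log2 fold change 3.33, SE 0.81, adjusted p = 0.146). Cd163, the haemoglobin scavenger receptor, was at 51.2, 4.62, 6.04 and 0.805 CPM against 3.01, 0.0971, 0.0775 and 0 CPM (adjusted p = 0.205), and the lipoprotein Apoe at 12301, 2798, 2359 and 1920.0 CPM against 1535, 168, 588 and 210.5 CPM (adjusted p = 0.206). Cd74, the invariant chain of MHC class II, made up most of the sum in each DN library except DN library 1. It was at 5459.9 ± 1899 CPM in GFP against 3658 ± 259 CPM in DN (SD, n = 4). No macrophage marker was at 0 in all DN libraries. The median of the list was 2.75 without GFP libraries 1 and 4. In bulk samples fewer cells of a type and less RNA per cell cannot be told apart, and the part of these cells in the 11 calls was not tested.

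Fibroblast and acinar markers followed other libraries. Of 20 fibroblast markers 19 were positive, with a median log2 fold change of 1.97, 12 at an unadjusted p under 0.05 and none called. They summed to 2241, 4279, 2762 and 17121 CPM in GFP and 2364, 2414, 2102 and 4119 in DN, with GFP library 4 highest and GFP library 1 below its DN partner. The matrix protease Mmp2 was at 54.4, 75.0, 47.0 and 820.5 CPM in GFP against 8.35, 2.05, 10.7 and 85.1 CPM in DN (log2 fold change 3.17, SE 0.67, adjusted p = 0.113), and the fibrillar collagen Col3a1 at 349.8, 908, 225 and 5156 CPM against 191, 63.4, 74.5 and 563 CPM (adjusted p = 0.167). Both had their highest value in GFP library 4.

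The 24 acinar genes, which code for digestive enzymes and their regulators, summed to 1225, 3193, 478 and 36236 CPM in GFP and 242, 1221, 404 and 128 in DN. All 24 had a positive fold change with a median of 3.58, 1 had an unadjusted p under 0.05, and the median was 1.03 without GFP library 4. The elastase Cela1 was at 69.9, 217, 57.1 and 1901 CPM in GFP against 33.0, 52.6, 37.4 and 31.3 CPM in DN (adjusted p = 0.302), so that GFP library 4 stood far above the others. The trypsin, elastase and amylase genes have near-identical copies that may exchange reads. For the 5 tested erythroid markers the sums were 4707, 44.4, 112 and 4.71 CPM in GFP and 287, 0.432, 98.0 and 0.582 in DN, and GFP library 1 was the highest.

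Lymphocyte markers had a median log2 fold change of -0.76 over 14 tested genes, 4 with an unadjusted p under 0.05 lower in GFP and 1 higher. Their sums were 53.7, 5.05, 14.0 and 4.19 CPM in GFP and 48.0, 26.5, 14.3 and 10.4 in DN, and Nkg7 of cytotoxic cells was at 0.885, 0.012, 1.63 and 0 CPM against 4.41, 7.11, 2.81 and 3.49 CPM (adjusted p = 0.264). The 12 neutrophil markers had 5 positive and 7 negative fold changes. Of 13 tested endothelial markers 9 were positive, and 10 of 10 of pericytes and smooth muscle. Sums were taken over all listed genes in the files, tested or not, and reached at most 119 CPM over 14 endothelial and 92.3 CPM over 10 pericyte and smooth muscle genes. The 12 islet genes summed to at most 43.9 CPM in GFP and 3.24 in DN, and the hormone gene Sst was at 0 in all DN libraries. The sum of 8 mesothelial genes was 107 CPM in GFP library 4 and at most 12.5 in DN, and that of 8 Schwann cell genes was 36.7 to 96.7 CPM over both groups.

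**Figure D2:**
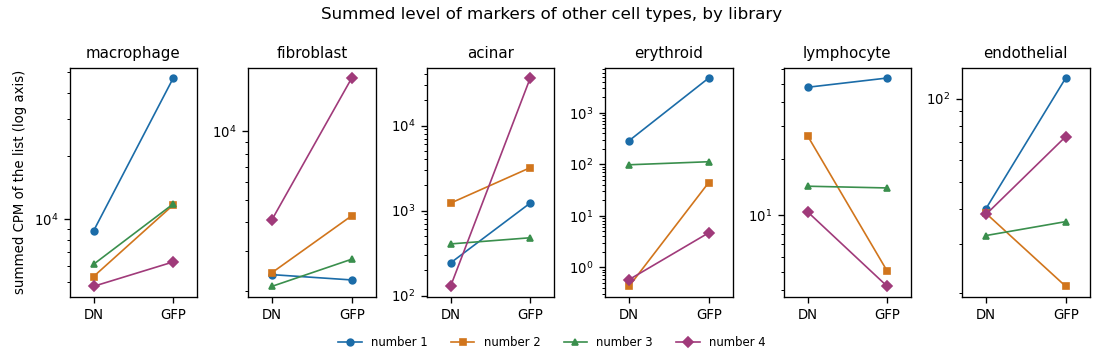
Each panel gives the summed CPM of 1 marker list on a log axis, in DN (left) and GFP (right), with 1 line per library number. GFP library 1 leads the macrophage and erythroid panels, and GFP library 4 the fibroblast and acinar panels.

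WNT targets were no uniform block. Of 26 genes in the list 21 were tested, 11 with a positive and 10 with a negative log2 fold change, with a median of 0.33. Tnfrsf19 and Lgr5, at 0 counts in all DN libraries, could only come out positive and are counted among the 11. None was called. An unadjusted p under 0.05 was reached by 4 higher, with Tnfrsf19 and Lgr5 again among them, and by 2 lower. The medians of the log2 ratio in pairs 1 to 4 were 0.06, 0.10, 0.59 and -0.03. With a filter that kept genes at 5 CPM or more in at least 4 libraries, the median fold change turned to -0.10.

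Tnfrsf19 (Troy), a receptor that marks stem cells and restrains WNT signalling, (Entrez 29820) lies on chromosome 14 from 60963834 to 61046855 in GRCm38.p6. It was detected in every GFP library and in no DN library. Its counts were 162, 150, 196 and 676 in GFP libraries 1 to 4 and 0 in each DN library. Against a floor of 3 counts over the 4 DN libraries it was at least 447-fold higher in GFP, and at least 252-fold without GFP library 4. Its adjusted p was 0.0729, and 0.367 without the block, so it missed the threshold. The adjusted p was 0.0323 without GFP library 4 and 2.3e-06 with DESeq2. Lgr5, the R-spondin receptor of intestinal and other stem cells, (Entrez 14160) lies on chromosome 10 from 115450314 to 115587780 in GRCm38.p6. It had counts of 156, 21, 80 and 28 in GFP and 0 in each DN library. That is at least 108-fold higher, or at least 67.6-fold without GFP library 1, with an adjusted p of 0.177. Both genes stayed low on the CPM scale, at 1.69, 1.8, 2.41 and 8.24 CPM and at 1.63, 0.251, 0.982 and 0.341 CPM. Of the other members at 0 counts in all DN libraries, the stem cell factor Ascl2 had 43 counts over the 4 GFP libraries, with its highest value, 0.503 CPM, in library 3 and 0 in library 4, and Wif1 was at 0 in GFP too.

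The feedback targets gave no call. Axin2, the scaffold of the destruction complex and a general WNT readout, had counts of 18, 0, 2 and 114 in GFP and 39, 2, 6 and 5 in DN (adjusted p = 0.841). Only GFP library 4 stood above its DN partner. Notum and Sp5 had 0 counts in all 8 libraries, and the factor Lef1 had 0, 18, 37 and 0 in GFP and 38, 8, 2 and 42 in DN (adjusted p = 0.932). Nkd1, a Dishevelled inhibitor, was at 5.03, 1.76, 2.33 and 33.6 CPM in GFP and 4.18, 0.756, 0.0111 and 2.75 CPM in DN (log2 fold change 2.53, SE 1.40, adjusted p = 0.461), with 4 of 4 pairs higher in GFP and a DN library 3 with 1 count. Rnf43, a ubiquitin ligase that removes Frizzled receptors, was at 11.8, 4.75, 9.76 and 0.841 CPM against 4.39, 5.98, 3.91 and 2.09 CPM (adjusted p = 0.759), higher in 2 pairs and lower in the other two.

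Bambi, a decoy receptor of the TGF-beta family, was at 7, 1.19, 2.26 and 11.7 CPM in GFP and 2.72, 0.55, 0.819 and 1.47 CPM in DN (log2 fold change 1.78, SE 0.62, adjusted p = 0.255) and was the higher in GFP in 4 of 4 pairs. The Notch ligand Jag1 was at 31.9, 35.4, 40.1 and 10.4 CPM against 42.9, 33.1, 53.4 and 41.8 CPM (log2 fold change -0.69, SE 0.25, adjusted p = 0.272), with the low value in GFP library 4. The letters CTTTG followed by 2 bases that are each A or T, used as the TCF site and searched on both strands from 250 bases before to 50 bases after each start, were in 20% of 25 promoters of the list and in 16.9% of 32851 promoters of all genes. The other motifs below were searched in the same windows.

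**Figure D3:**
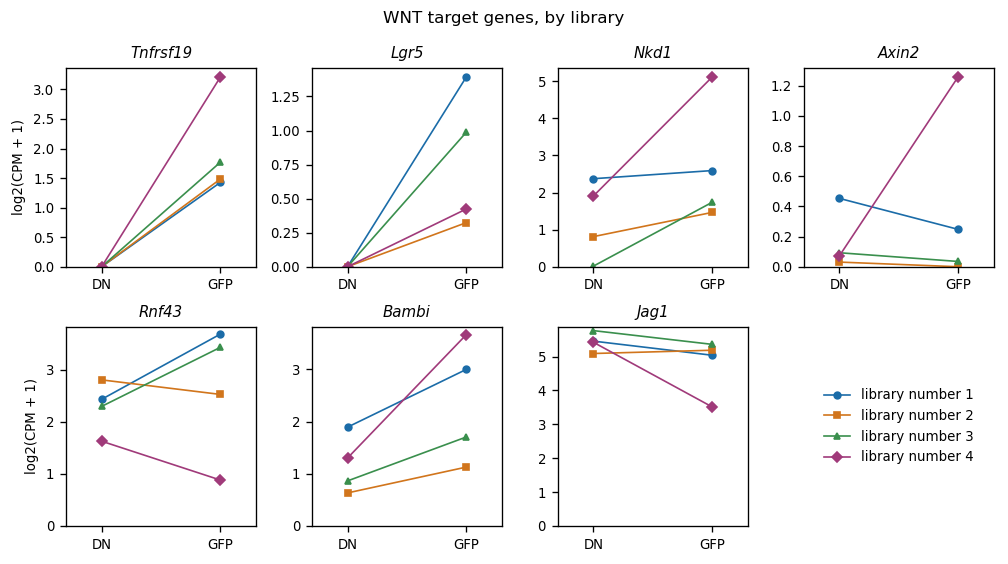
Panels show 7 WNT targets as log2(CPM + 1) in DN (left) and GFP (right), with 1 line per library number. Tnfrsf19 and Lgr5 start at 0 in all DN libraries, Axin2 is higher in GFP in library 4 only, and the lines of Rnf43 and Jag1 run in both directions.

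Ligands, receptors and carriers of the pathway gave no call either. Porcn was at 19.1, 30.8, 38.3 and 29.3 CPM in GFP and 28.7, 24.2, 34.0 and 25.0 CPM in DN (log2 fold change 0.08, SE 0.20, adjusted p = 0.911), and Wls at 70.5, 80.9, 84.5 and 88.7 CPM against 52.4, 78.4, 95.3 and 77.1 CPM (log2 fold change 0.10, SE 0.20, adjusted p = 0.875). Reads of the Porcn gene cannot be told from any Porcn sequence in the construct. Of 12 tested WNT ligands 7 had a positive fold change, and Wnt10a was at 136 ± 52.9 CPM in GFP against 168 ± 54.3 CPM in DN (SD, n = 4) (adjusted p = 0.427). The ligand median of 0.41 turned to -0.15 without GFP library 4. Of 14 receptors 7 were positive, among them Fzd5 at 19.2 ± 5.8 CPM in GFP against 13.7 ± 1.11 CPM in DN (SD, n = 4) (adjusted p = 0.324), while Fzd6 was at 10.3 ± 4.94 CPM in GFP against 14.4 ± 2.64 CPM in DN (SD, n = 4) (adjusted p = 0.357).

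No secreted WNT inhibitor was called. All 5 tested members of 12 had a positive log2 fold change, with a median of 2.89, and 3 had an unadjusted p under 0.05. Sfrp4 and Dkk3 were at 0 in a DN library. Genes so low in DN enter the test through the libraries where they are high. The shared sign is therefore not read as a result. The median was 1.31 under the filter of 5 CPM in at least 4 libraries. The list's summed level was 4207, 2761, 2149.6 and 5630.3 CPM in GFP libraries 1 to 4 and 4206, 2464, 2181 and 3145 CPM in DN libraries 1 to 4, so that only library 4 was far apart. Most of that sum was Igfbp4, which binds insulin-like growth factors, with a log2 fold change of 0.21. Sfrp4, a Frizzled-related protein that binds WNT ligands, was at 0.938, 8.39, 4.31 and 181 CPM in GFP and 0, 0.518, 0.354 and 16.7 CPM in DN (adjusted p = 0.133). Sfrp1, of the same family, was at 3.95, 13.3, 3.93 and 106 CPM against 0.87, 0.259, 0.609 and 13.9 CPM (adjusted p = 0.285), and Dkk3 at 7.66, 2.68, 0.0123 and 38.5 CPM against 3.25, 0, 0.0111 and 2.51 CPM (adjusted p = 0.344). Rspo1, the tested R-spondin, was at 0.885, 0.503, 0.749 and 17.0 CPM against 0, 0, 0 and 2.43 CPM (adjusted p = 0.205). Library 4 was the highest in both groups for each of these 4 genes except Dkk3 in DN, and the fibroblast markers also had their highest sums there. The part of those cells was not tested.

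Inflammatory signals leaned towards GFP. Of 24 chemokines and cytokines 19 had a positive log2 fold change, with a median of 0.58 against -0.02 over all genes tested. An unadjusted p under 0.05 was reached by 12, all higher in GFP, where 7.77% of all genes tested were. The 2 called members were Ccl7 and Il6, against 0.0626% of all genes tested called higher in GFP. In 4 members the GFP libraries lay above DN without overlap, against 1.91% of all genes tested. Pair medians were 0.67, 0.37, 0.31 and 0.79, and the list median was 0.47 without GFP libraries 1 and 4. Cxcl12, the ligand of Cxcr4 made by stromal cells, was at 1.3, 8.02, 4.01 and 231 CPM in GFP and 0.501, 0.421, 0 and 9.1 CPM in DN (log2 fold change 4.36, SE 0.77, adjusted p = 0.0682), mostly in library 4. Ccl8, a monocyte chemokine, was at 217, 40.1, 62.1 and 19.2 CPM against 16.1, 7.37, 12.8 and 10.4 CPM (log2 fold change 2.58, SE 0.61, adjusted p = 0.146) with no overlap and its highest value in GFP library 1. That library also had the highest macrophage sum, 46973 CPM against 8796 in DN library 1, and 20 of 20 macrophage markers were positive (median 2.46). Their part in the values of chemokines and cytokines was not tested.

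NF-kB is the factor through which TNF and interleukin 1 switch on such genes, and its own inhibitors are among its targets. Of 20 NF-kB factors and targets 16 were positive, with a median log2 fold change of 0.24, 8 higher and 1 lower at an unadjusted p under 0.05, and none called. Tnfaip3 (A20), a feedback inhibitor of NF-kB, was at 269, 319.8, 336 and 106 CPM in GFP and 109.9, 189.7, 247 and 71.7 CPM in DN (log2 fold change 0.77, SE 0.15, adjusted p = 0.0828). The libraries ranked alike in both groups, from number 4 as the lowest to number 3 as the highest, and GFP was the higher in 4 of 4 pairs. Nfkbiz, a nuclear cofactor that NF-kB uses at Il6, was at 312, 536, 533 and 275 CPM against 182, 321, 465 and 168 CPM (log2 fold change 0.59, SE 0.15, adjusted p = 0.146), also higher in 4 of 4 pairs. The acute-phase gene Saa3 was at 496, 29.99, 31.5 and 118 CPM against 48.7, 1.71, 2.18 and 19.3 CPM (log2 fold change 3.40, SE 0.66, adjusted p = 0.0863), and the adhesion molecule Icam1 at 358 ± 45.6 CPM in GFP against 268 ± 78.0 CPM in DN (SD, n = 4) (adjusted p = 0.206).

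The promoters of Il6 and Tnfaip3 are shown because both genes bear NF-kB consensus matches close to their start and had higher values in GFP. Each sequence is the 250 bases before the start of transcription on the gene's own strand, from RefSeq on GRCm38.p6, with the matches in capitals. Il6 lies on the plus strand (chr5:30012864-30013113) with a match that begins 44 bases before the start. Tnfaip3 lies on the minus strand (chr10:19015411-19015660) with matches that begin 125 and 12 bases before it.
Il6: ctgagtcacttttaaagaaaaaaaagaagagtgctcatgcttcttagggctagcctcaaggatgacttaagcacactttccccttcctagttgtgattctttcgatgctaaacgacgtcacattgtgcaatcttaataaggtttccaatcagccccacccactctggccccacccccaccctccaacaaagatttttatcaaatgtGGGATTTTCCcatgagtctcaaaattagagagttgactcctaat
Tnfaip3: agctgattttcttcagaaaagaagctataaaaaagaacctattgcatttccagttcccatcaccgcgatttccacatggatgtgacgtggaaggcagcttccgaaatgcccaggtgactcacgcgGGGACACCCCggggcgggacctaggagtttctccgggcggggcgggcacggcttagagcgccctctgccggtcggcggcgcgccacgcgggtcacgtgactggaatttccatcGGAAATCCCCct
The consensus was found in 50% of 20 promoters of the NF-kB list and in 8.46% of all 32851, on either strand. A match describes letters only and shows no binding.

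Heat shock genes split in direction. Of 22 members 10 had a positive and 12 a negative log2 fold change, with a median of -0.07, and the 1 called was Hspa1a. Of all genes tested 0.0626% were called higher in GFP. Hspa1b, its neighbour with a nearly identical coding sequence, was at 375, 297, 499 and 675 CPM in GFP and 126, 199.8, 338 and 158 CPM in DN (log2 fold change 1.19, SE 0.25, adjusted p = 0.0966). GFP was the higher in 4 of 4 pairs, but GFP library 2 lay below DN library 3. Reads may pass between the 2 genes, and Hspa1a overlaps the gene model Gm20481, so the 2 are uncertain as single genes. Stip1, the adaptor between Hsp70 and Hsp90, was at 284, 242, 218 and 145 CPM against 339.9, 272, 261 and 282 CPM (log2 fold change -0.39, SE 0.16, adjusted p = 0.315), and the constitutive Hspa8 at 1566, 1437, 1277 and 884 CPM against 1699.9, 1555, 1486 and 1542 CPM (log2 fold change -0.29, SE 0.13, adjusted p = 0.349). Both were lower in GFP in 4 of 4 pairs.

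The promoters of both Hsp70 genes are printed to show how alike they are. Both lie on the minus strand, Hspa1a at chr17:34972157-34972406 and Hspa1b at chr17:34959239-34959488, again as 250 bases before the start from RefSeq on GRCm38.p6. The capitals mark a heat shock element, searched as GAANNTTC and TTCNNGAA.
Hspa1a: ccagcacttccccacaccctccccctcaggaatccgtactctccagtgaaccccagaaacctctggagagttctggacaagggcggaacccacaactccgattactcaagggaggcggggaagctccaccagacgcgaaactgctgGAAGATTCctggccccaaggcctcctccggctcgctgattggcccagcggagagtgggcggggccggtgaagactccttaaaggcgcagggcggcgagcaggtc
Hspa1b: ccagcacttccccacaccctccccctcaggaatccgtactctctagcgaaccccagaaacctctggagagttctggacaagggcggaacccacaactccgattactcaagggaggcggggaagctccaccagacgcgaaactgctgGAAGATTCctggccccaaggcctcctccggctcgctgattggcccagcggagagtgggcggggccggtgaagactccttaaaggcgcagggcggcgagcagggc
The pair had 247 of 250 bases in common (98.8%), and the element begins 104 bases before the start in both. It was found in 52.2% of 23 promoters of the heat shock list, from 11 of the 17 genes with a promoter entry, and in 15.1% of all promoters. None of the other members with the element, Dnajb4 and Bag3 included, was called.

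Immediate-early genes, which answer growth factors and stress within minutes, were all on the GFP side. The 22 members had 22 positive log2 fold changes with a median of 0.51, and 12 had an unadjusted p under 0.05, but none was called. Pair medians were 0.25, 0.35, 0.23 and 0.96, so that library 4 differed most, and the list median was 0.33 without GFP library 4. Dusp1, a phosphatase that shuts off MAP kinases, was at 3898, 4410.1, 5383 and 6724 CPM in GFP and 2502, 3518, 4147 and 2420.0 CPM in DN (log2 fold change 0.69, SE 0.18, adjusted p = 0.163). Zfp36, which speeds the decay of cytokine mRNAs, was at 2524, 2930.2, 3724 and 3437 CPM against 1655, 2394, 2874 and 1200.3 CPM (log2 fold change 0.70, SE 0.16, adjusted p = 0.133). For both genes GFP was the higher in 4 of 4 pairs while the 2 groups overlapped.

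The nuclear receptor Nr4a1 was at 699, 414, 617 and 809 CPM in GFP and 314, 326, 545 and 153 CPM in DN (log2 fold change 1.01, SE 0.28, adjusted p = 0.179), and Klf2, a factor of quiescent endothelium and macrophages, at 441, 55.6, 87.4 and 373 CPM against 141, 43.3, 58.9 and 67.3 CPM (log2 fold change 1.31, SE 0.29, adjusted p = 0.109). The high Klf2 values were those of GFP libraries 1 and 4. Zfp36 is shown as the member named here with a CArG box, the site of serum response factor, in capitals. Its 250 bases before the start lie on the minus strand at chr7:28379229-28379478 (RefSeq, GRCm38.p6), and the box begins 58 bases before the start.
Zfp36: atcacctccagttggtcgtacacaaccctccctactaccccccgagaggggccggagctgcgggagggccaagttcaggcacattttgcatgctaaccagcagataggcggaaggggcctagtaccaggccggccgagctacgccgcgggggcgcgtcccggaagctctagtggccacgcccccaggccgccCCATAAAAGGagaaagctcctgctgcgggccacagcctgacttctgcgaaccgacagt
CArG boxes were found in 22.7% of 22 promoters of the list and in 1.63% of all promoters. The 5 promoters of the list with a box belong to only 2 of the 18 genes with a promoter entry.

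Stress genes of the unfolded protein and amino acid response split evenly, with 7 positive and 8 negative members of 15 and 3 lower in GFP at an unadjusted p under 0.05. Those were Asns, which makes asparagine, at 57.4 ± 8.9 CPM in GFP against 79.6 ± 10.9 CPM in DN (SD, n = 4) (adjusted p = 0.134), Psat1 of serine synthesis at 81.0 ± 40.0 CPM in GFP against 131 ± 35.1 CPM in DN (SD, n = 4) (adjusted p = 0.248), and the lipoprotein receptor Vldlr at 20.7 ± 8.9 CPM in GFP against 38.2 ± 7.24 CPM in DN (SD, n = 4) (adjusted p = 0.232). Interferon response genes had 14 positive members of 22 with a median of 0.03, and the MHC class I list had 8 positive members of 14 with a median of 0.03. Irf7, a master factor of interferon genes that overlaps Phrf1, was at 147 ± 39.0 CPM in GFP against 101 ± 32.1 CPM in DN (SD, n = 4) (adjusted p = 0.126).

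Lipid and sterol synthesis genes leaned the other way. Of 22 members 21 had a negative log2 fold change, with a median of -0.36, and 8 were lower at an unadjusted p under 0.05, but none was called. Pair medians were -0.24, -0.17, -0.35 and -0.82, and the list median was -0.32 without GFP libraries 1 and 4. Sqle, the epoxidase that commits squalene to sterols, was at 117, 87.6, 53.9 and 43.0 CPM in GFP and 145, 104, 86.3 and 119 CPM in DN (log2 fold change -0.65, SE 0.20, adjusted p = 0.21). The desaturase Scd2 was at 522 ± 145 CPM in GFP against 681 ± 95.4 CPM in DN (SD, n = 4) (adjusted p = 0.213). Both were lower in GFP in 4 of 4 pairs. The sterol element, searched as TCACNCCA, was in 18.8% of 16 promoters of the list and in 4.36% of all promoters.

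Glycolysis and growth programmes were also lower by count. Of 22 genes of hypoxia and glycolysis 17 had a negative fold change (median -0.16), 5 lower and 2 higher at an unadjusted p under 0.05. Gapdh, the glycolytic dehydrogenase, was at 3653, 3436, 3508 and 4662 CPM in GFP and 5694, 4115, 4234 and 7555 CPM in DN (log2 fold change -0.47, SE 0.12, adjusted p = 0.147), and Pgam1, a mutase of lower glycolysis, at 1019 ± 132 CPM in GFP against 1399 ± 356 CPM in DN (SD, n = 4) (adjusted p = 0.217). The lactate exporter Slc16a3 went the other way, at 369, 45.5, 47.2 and 29.99 CPM in GFP against 104, 7.81, 18.4 and 29.8 CPM in DN (adjusted p = 0.277). It was higher in GFP in each pair, though hardly so in pair 4. The list median was -0.00434 without GFP libraries 1 and 4.

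Of 22 genes of the G2/M phase 17 were negative (median -0.33), and of 22 of DNA replication 19 (median -0.22), with 1 gene of each list at an unadjusted p under 0.05. Cenpa, the centromeric histone, was at 66.2 ± 30.9 CPM in GFP against 103 ± 32.6 CPM in DN (SD, n = 4) (adjusted p = 0.367), and the helicase subunit Mcm2 at 246, 181, 189.7 and 101 CPM against 289, 216, 215 and 233 CPM (adjusted p = 0.341). GFP library 4 held the low Mcm2 value, and the DNA replication median was -0.03 without it. Of 20 genes of ribosome biogenesis, a programme that MYC drives, 17 were negative (median -0.28) and 6 were lower at an unadjusted p under 0.05. Nop16, a nucleolar protein, was at 60.4 ± 10.6 CPM in GFP against 79.0 ± 7.63 CPM in DN (SD, n = 4) (adjusted p = 0.177), and Pes1, which processes ribosomal RNA, was lower in GFP with no overlap, at 134, 126, 128 and 107 CPM against 177, 138, 138 and 152 CPM (adjusted p = 0.251).

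Identity lists were mixed. The mesenchymal list had 12 positive members of 18 (median 0.59, and 0.19 without GFP libraries 1 and 4), but Vim, its intermediate filament, was at 981, 748, 610.1 and 522 CPM in GFP and 1341, 779, 745 and 1065 CPM in DN (log2 fold change -0.44, SE 0.15, adjusted p = 0.237) and lower in 4 of 4 pairs. Prrx1, a factor of mesenchyme, was at 0.26, 2.02, 0.872 and 8.83 CPM against 0, 0.054, 0 and 0.833 CPM (adjusted p = 0.206), highest in library 4 like the fibroblast markers. The classical PDAC list had 9 positive and 13 negative members of 22. Its factors Foxa2, at 66.6 ± 9.31 CPM in GFP against 83.6 ± 14.0 CPM in DN (SD, n = 4) (adjusted p = 0.27), and Hnf4a, at 139 ± 43.4 CPM in GFP against 172 ± 28.2 CPM in DN (SD, n = 4) (adjusted p = 0.338), were not called. TGF-beta targets had 15 positive members of 18 with a median of 0.10, and Tgfbr2, the type II receptor, was at 118, 75.8, 96.7 and 144 CPM in GFP and 64.6, 53.1, 69.9 and 62.9 CPM in DN with no overlap (log2 fold change 0.78, SE 0.20, adjusted p = 0.162).

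**Figure D4:**
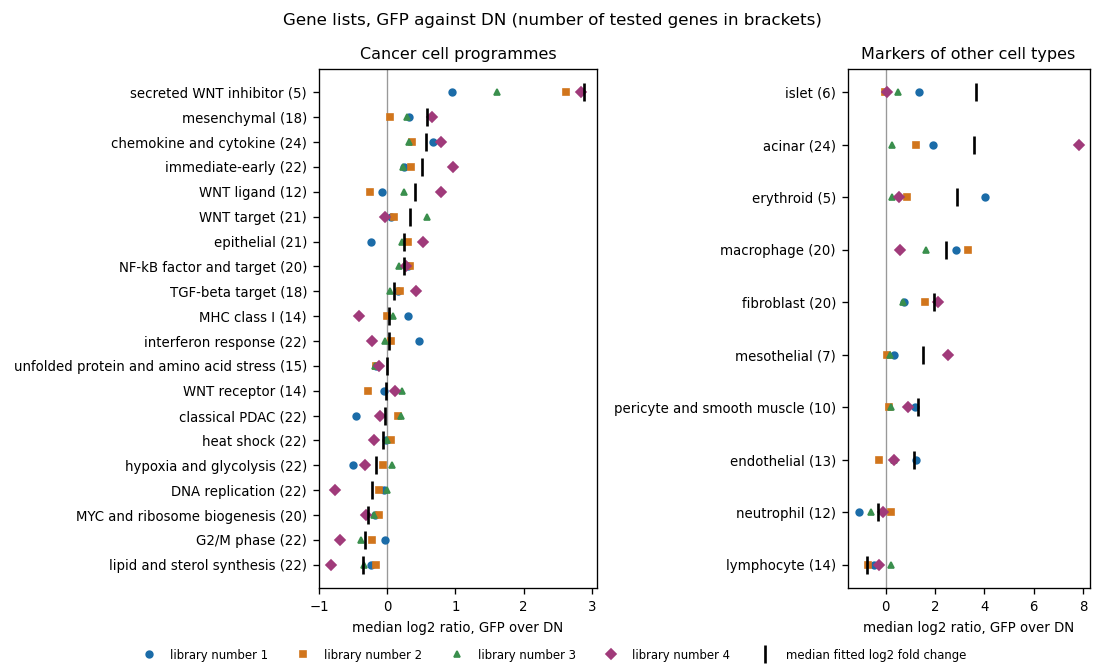
Each row is a gene list with the number of tested genes in brackets, and the x axis is the median log2 ratio of GFP over DN. Coloured points are library numbers, computed with 1 CPM added, and black bars are medians of the fitted log2 fold change, which carry no such addition and can lie beyond the points in lists of low abundance. All 4 points of the immediate-early list lie right of 0, and all 4 of lipid and sterol synthesis lie left of it.

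A mean of at least 50 CPM in both groups was reached by 3404 genes. The lowest p among those higher in GFP belonged to Hexa, a lysosomal hexosaminidase, at 578, 161, 185 and 233 CPM in GFP and 146, 77.4, 102 and 76.9 CPM in DN (log2 fold change 1.42, SE 0.25, adjusted p = 0.062). Glul, glutamine synthetase and a known WNT target in liver, was at 156, 219.6, 173 and 246 CPM against 98.5, 149.6, 124 and 122 CPM (log2 fold change 0.68, SE 0.13, adjusted p = 0.0729). Scarb2, a lysosomal membrane protein, was at 112, 89.3, 85.7 and 71.0 CPM against 52.6, 52.8, 53.9 and 61.8 CPM (log2 fold change 0.69, SE 0.14, adjusted p = 0.0832), and Alas1 of haem synthesis at 109, 80.6, 68.7 and 76.3 CPM against 57.7, 56.5, 55.6 and 41.0 CPM (log2 fold change 0.65, SE 0.12, adjusted p = 0.0728). In all 4 genes no GFP library fell into the DN range, and none was called.

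Gdf15, a stress cytokine, was at 311, 517, 583 and 462 CPM in GFP and 123, 414, 417 and 190.3 CPM in DN (log2 fold change 0.84, SE 0.17, adjusted p = 0.0848), and Ppp1r15a, which restores translation after stress, at 411 ± 63.1 CPM in GFP against 264 ± 89.4 CPM in DN (SD, n = 4) (adjusted p = 0.0909). The integrin Itgb5 was at 341 ± 96.9 CPM in GFP against 197 ± 39.2 CPM in DN (SD, n = 4) (adjusted p = 0.0909), the secreted factor Metrnl at 157 ± 91.2 CPM in GFP against 67.7 ± 20.1 CPM in DN (SD, n = 4) (adjusted p = 0.062) and the lysosomal precursor Psap at 4599.9, 1489, 1571 and 958 CPM in GFP against 1242, 737, 838 and 612 CPM in DN (adjusted p = 0.0828), highest in GFP library 1. On the lower side, after Tmsb10, came Gldc, the glycine decarboxylase, at 167, 167, 175 and 186 CPM in GFP and 348, 225, 233 and 291 CPM in DN with no overlap (log2 fold change -0.64, SE 0.11, adjusted p = 0.0583). The connexin Gjb5 was at 69.5, 53.9, 49.5 and 84.6 CPM against 112, 78.5, 79.6 and 109 CPM (log2 fold change -0.57, SE 0.10, adjusted p = 0.062), and the proteoglycan Acan at 130.3, 28.8, 33.1 and 49.1 CPM against 264, 87.1, 48.1 and 169.5 CPM (log2 fold change -1.22, SE 0.24, adjusted p = 0.0848). Taf5l, Plek2, Lsm1, Ankrd40 and Asns were also on that side, with log2 fold changes from -0.78 to -0.45.

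Groups that did not overlap, the higher one averaging 10 CPM or more, were found for 140 genes higher in GFP and 266 lower. Without that minimum the shares of the 15963 genes tested were 1.91% and 2.28%. The largest positive fold changes after Slco2b1 were those of P3h3, of the collagen prolyl hydroxylase family, at 2.89, 8.31, 6.88 and 43.1 CPM in GFP against 0.0284, 0.054, 0.0221 and 2.49 CPM in DN (adjusted p = 0.0913), and Cd209g, a lectin of the DC-SIGN family, at 33.8, 5.18, 9.6 and 0.731 CPM against 0.52, 0.335, 0.21 and 0.502 CPM (adjusted p = 0.103). Abca1, the cholesterol exporter, was at 52.1, 7.34, 9.33 and 22.0 CPM against 3.9, 0.421, 0.509 and 0.391 CPM (adjusted p = 0.125), Gpnmb, a glycoprotein of macrophages and other cells, at 95.0, 28.3, 24.0 and 48.1 CPM against 5.51, 0.626, 1.48 and 10.2 CPM (adjusted p = 0.146), and lipoprotein lipase, Lpl, at 37.5, 8.2, 7.91 and 41.2 CPM against 2.61, 0.367, 1.14 and 3.46 CPM (adjusted p = 0.062). The cathepsin Ctsf and the chemokine Cxcl14 were at log2 fold changes of 3.87 and 3.78.

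Negative fold changes under the same conditions were smaller. The largest was that of Traf3, a brake on non-canonical NF-kB, at 10.5, 8.16, 6.91 and 4.85 CPM in GFP and 16.0, 14.1, 13.7 and 14.9 CPM in DN (log2 fold change -1.03, SE 0.26, adjusted p = 0.15). The RNA-binding protein Ybx3 was at 251, 233, 170.2 and 77.5 CPM against 339.8, 339.7, 258 and 385 CPM (adjusted p = 0.198), Tigar, a fructose bisphosphatase that p53 induces, at 6.37 ± 1.39 CPM in GFP against 11.7 ± 2.15 CPM in DN (SD, n = 4) (adjusted p = 0.167), and Afp, the fetal serum protein, at 60.3, 46.0, 43.2 and 40.6 CPM against 82.5, 78.1, 92.4 and 83.6 CPM (adjusted p = 0.261). Plek2, Zfp689, Col4a5, Fgd1, Dusp9 and Vldlr made up the rest, at log2 fold changes from -0.95 to -0.78.

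The same reporter difference could be read once more among mScarlet-positive cells, as DP against mScarlet, with which GFP against DN shares no library though the fit and the library numbers are shared. No gene was called there (0%), and 708 had an unadjusted p under 0.05 (4.44%), with a lowest adjusted p of 0.0892 and 48.7% of fold changes positive. DESeq2 called 195. All 11 genes called in GFP against DN had the same sign, with log2 fold changes of 3.25 for Igf1, 2.87 for Ccl7, 2.19 for Pltp, 1.95 for Il6, 0.93 for Hspa1a and -0.25 for Tmsb10. Pltp and Igf1 had the lowest adjusted p, 0.0892 for both. Macrophage markers were positive for 20 of 20 there too, with a median of 2.38, and fibroblast markers for 16 of 20, whereas acinar genes were positive for 2 of 24 (median -2.01). Immediate-early genes were positive for 18 of 22 (median 0.18), chemokines and cytokines for 18 of 24 (median 0.26), and lipid and sterol genes for 7 of 22 (median -0.11).

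Whether the difference depended on the mScarlet gate was tested as an interaction. No gene was called (0%), 753 had an unadjusted p under 0.05 (4.72%), the lowest adjusted p was 0.979, and DESeq2 called 61. For Tnfrsf19 the difference between the 2 fold changes was 12.09 on the log2 scale (SE 2.62, adjusted p = 0.979), and that fitted value depends on DN libraries at 0. Its mean level was 0.0631 CPM in mScarlet and 0.324 in DP, against 3.53 in GFP. For Hspa1a the interaction was 1.44 (SE 0.46, adjusted p = 0.979), with means of 24.5 CPM in mScarlet and 48.6 in DP, against 169 in GFP.

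**Figure D5:**
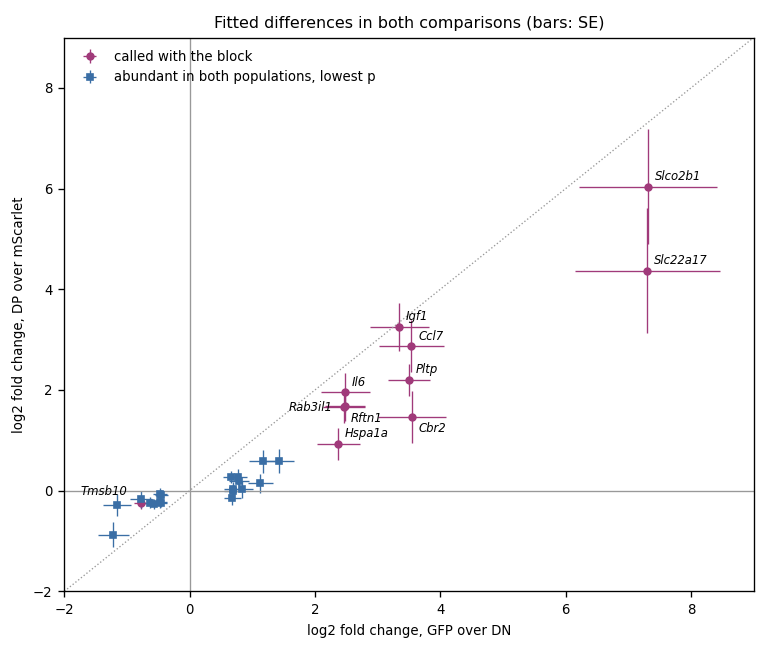
The x axis is the log2 fold change of GFP over DN and the y axis that of DP over mScarlet, with SE bars, for the 11 called genes (circles) and the abundant genes with the lowest p (squares). All circles lie in the quadrants of equal sign, and most lie below the dotted line of equal fold change.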

How the data were processed

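RNA was measured by paired-end sequencing of 16 sorted libraries, 8 of which (GFP and DN) are compared here. RNA was isolated on small columns, and cDNA of whole transcripts was amplified by PCR and then fragmented, per the labels' protocols. The authors deposited raw counts per gene with no normalization, keyed by Entrez identifier. The submitters' processing notes name STAR, DESeq2 1.24.0 and GRCm38 (mm10) without their roles, and the sources used here give no read counter, annotation or use of strand. Of 24467 genes listed, 24437 matched a symbol in a RefSeq table of GRCm38.p6, and the other 30 held 1.11% to 1.93% of counts.

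Counts were tested with the quasi-likelihood test of edgeR 4.0.16 (R 4.3.3) on all 16 libraries, with group and library number as terms, after edgeR's expression filter and TMM scaling. A gene was called at an adjusted p (Benjamini-Hochberg, over all 15963 tested genes) under 0.05, and every adjusted p in the text is of this fit unless another is named. CPM use the same scaling, and log2 ratios per pair use 1 CPM as a pseudocount. SE was not given by the fit. It was worked back as the absolute log2 fold change divided by the square root of the test's F statistic. It is therefore an approximate standard error, least reliable for genes with DN libraries at 0. Each group had 4 libraries. All groups shared 1 estimate per gene of the spread and of the library number effect, so the spread is not that of GFP and DN alone.

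The pairing was checked on 8102 genes. Deviations from group means correlated at r = 0.39 to 0.73 between GFP and DN libraries of the same number and at -0.46 to 0.20 between other numbers. Centring within each group pushes r between other numbers down where r for the same number is positive, so these ranges are not independent. All 24 same-number pairs over the 4 groups exceeded 0.1, but so did some pairs of other numbers. GFP library 1 correlated at 0.238 with mScarlet library 4 and at 0.179 with mScarlet library 1. No replicates agreed within sampling noise (lowest chi-square per degree of freedom 91.8). That value ran from 169.5 to 1644 between GFP libraries and from 91.8 to 438 between DN libraries. It ran from 123 to 385 in mScarlet and from 97.0 to 356 in DP. The labels do not say that the libraries of one group came from separate animals beyond the stated number of mice, and p-values measure the spread between these libraries.

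The members, gene lists and tests were chosen with earlier results of these data known. The text names Hspa1a, Il6, Tnfrsf19, Lgr5, 8 WNT genes, all called genes, per direction the 10 largest fold changes among genes of at least 10 CPM without overlap and the 10 lowest p among genes of at least 50 CPM in both groups, and up to 4 members a list with the lowest p. Some genes that this rule names are not reported here. Krt19, Krt8, Cdh1, Epcam, Cd74, Ascl2, Wif1, Igfbp4 and the genes of the added lysosome list were named after their values were seen. Alternatives were other tests (DESeq2 1.42.0, limma 3.58.1), scalings, filters, no block, the 8 libraries alone, and leaving out each library or number.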

Additional observations from a re-analysis of the deposited data

Results flagged for a closer look

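A library stood apart from the other 3 of its group by Dixon's test on log2(CPM + 1) in 18 of 200 groups of named genes, and chance gives about 1 in 20. DN library 1 was high for Rab3il1 (26.5 CPM against 7.14 in the next library), Rftn1 (11.2 against 2.59), Slco2b1 (0.946 against 0.054), Cd163 (3.01 against 0.0971), Abca1 (3.9 against 0.509) and Axin2 (0.369 against 0.0664). DN library 4 was high for Sfrp4 (16.7 CPM against 0.518), Sfrp1 (13.9 against 0.871), Rspo1 (2.43 against 0), P3h3 (2.49 against 0.054), Slc22a17 (0.893 against 0), Prrx1 (0.833 against 0.054) and Scarb2 (61.8 against 53.9), and low for Alas1 (41.0 against 55.6). GFP library 4 was high for Mmp2 (820.5 CPM against 75.0) and Rspo1 (17.0 against 0.886). GFP library 1 was high for Psat1 (141 CPM against 64.2), and GFP library 2 was low for Col4a5 (2.92 against 7.4).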

How the results depend on the processing

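The count of 11 genes called in GFP against DN depended on the test and on single libraries. It was 768 with DESeq2, 298 with limma voom and 118 with its quality weights, all with the replicate block, and it was 0 with no replicate block. It was 39 for the GFP and DN libraries alone with the block and 0 without it, the latter chosen after seeing the data. Without a filter 7 genes were called and with the strict filter 27, and RLE or upper quartile factors gave 13 and 11. Leaving out 1 library gave 1 to 53 calls, with 53 without GFP library 4, 16 without GFP library 2, 4 without DN library 1, 2 without GFP library 1 and 1 without DN library 2, 3 or 4. Leaving out a library number in all groups gave 2, 0, 1 and 53 calls for numbers 1 to 4, and leaving out GFP libraries 1 and 4 together gave 2. All 11 genes were also called by DESeq2, by both limma fits and under RLE and upper quartile factors. The interaction gave 61 calls with DESeq2 and 0 under the other alternatives. DP against mScarlet gave 195 with DESeq2, 2 without GFP libraries 1 and 4, 40 without library number 4, 3 with the strict filter and 0 otherwise.

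Among the named genes, 4 that were not called changed sign. Axin2, at -0.68, turned to 0.0129 without library number 2, 0.227 and 1.09 with limma voom with and without quality weights, 1.65 with no replicate block and 0.127 without DN library 3, and leaving out 1 library gave -1.64 to 0.127. Lef1, at -0.72, turned to 1.36 without GFP libraries 1 and 4, 0.702 without number 4, 0.463 with voom quality weights, and 0.38, 0.14 and 0.28 without DN library 4, GFP library 1 and GFP library 4, within a range of -2.72 to 0.38. Porcn, at 0.076, turned to -0.0198 without number 2 and to -0.00919, -0.00715 and -0.0925 without DN library 2, GFP library 3 and GFP library 4, within a range of -0.0925 to 0.286. Wls, at 0.098, turned to -0.0802 without DN library 1 and -0.0145 without GFP library 2, within a range of -0.0802 to 0.244. The cause was not tested. Axin2 had 0 to 114 and Lef1 0 to 42 counts a library, and for Notum and Sp5, at 0 counts in all 8 libraries, a level under the floor of 3 counts was not detectable.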

Other observations

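A list of 30 lysosomal genes, chosen after the values were seen because Hexa, Psap and Scarb2 led the genes that were abundant in both groups, had a positive log2 fold change for 30 of 30 members. Over all genes tested 48.4% were positive. The median was 0.46, and none of the list was called. An unadjusted p under 0.05 was reached by 20 members, all higher in GFP, against 7.77% of all genes tested. For 6 members no GFP library fell into the DN range, all higher in GFP, against 1.91% of all genes tested. Because the list was picked from these same values, its counts describe the list only and are no support for a lysosomal difference. Pair medians were 1.02, 0.31, 0.30 and 0.33, so that library 1, which also held the highest macrophage sum, differed most. The summed level was 30477, 11502, 12133 and 12042 CPM in GFP libraries 1 to 4 and 10430.4, 8456, 9106 and 8369.7 in DN libraries 1 to 4, with every GFP library above every DN library. The protease Ctsb was at 5865, 1666, 1733 and 1812 CPM in GFP against 1446, 1195, 1287 and 1157 CPM in DN, and the protease Ctsd at 7804, 1987, 1985 and 1597 CPM against 1667, 1217, 1216 and 1281 CPM. Both were far higher in GFP library 1 than in any other library. Neu1, a sialidase of the lysosome, was at 175 ± 13.4 CPM in GFP against 127 ± 11.2 CPM in DN (SD, n = 4), and the tetraspanin Cd63 at 546 ± 177 CPM in GFP against 387 ± 38.3 CPM in DN (SD, n = 4), with no overlap in both. In DP against mScarlet 21 of 30 members were positive, with a median of 0.19. The part of macrophages in these values was not tested.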
